A study of Mus musculus with 48 samples.

Results

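The genes described here encode the proteins of the cytosolic ribosome. They were taken as every gene of the deposited count table whose symbol names a small or large subunit protein (Rps or Rpl with a number, Rplp0 to Rplp2, Rpsa), without the rows marked -ps as pseudogenes, and with at least 10 counts in 7 or more libraries. Of 88 symbols of this form, 85 met the count minimum, 35 of the small and 50 of the large subunit, among 48795 genes in the table. Rpl39l, Rps12l1 and Rpl10l did not, with highest counts of 7, 4 and 0. The RNA came from the striatum of 48 mice of the C57BL/6 background at 6 months of age, on the assumption that each library is a separate animal. By label there were 8 Q140 Msh3-/-, 8 Q140 Msh3+/-, 8 Q140, 8 Msh3-/-, 9 Msh3+/- and 7 wild type libraries, while the series' own design text gives 7 to 8 a group. Q140 is a knock-in of an expanded CAG repeat in Htt, heterozygous by label in every group that carries it, and it models Huntington's disease. Msh3 is part of the MutSbeta complex, which recognises small loops in mispaired DNA, and bears on how far CAG repeats grow in tissue. Each Msh3 genotype is as the labels give it.

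A ribosome holds a single copy of most of these proteins, so their genes are usually expressed together, and in neurons they feed both the cell body and local translation in dendrites. Their mRNAs mostly begin with a C followed by a run of pyrimidines, the 5′ terminal oligopyrimidine or TOP motif, through which mTORC1 signalling sets their translation. Ribosomal protein genes also have many processed pseudogenes, which makes their reads hard to place.

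The starts of 4 of the genes whose values are given below, and of Rps6, show how the TOP motif looks in this family. Each line gives 40 bases before and 15 bases from the annotated start, 5′ to 3′ on the gene's strand, from RefSeq on GRCm38.p6. Capitals mark the longest run of pyrimidines that opens with a C within 5 bases of the annotated start.
Rpl31, chr1:39367811-39367865, plus strand: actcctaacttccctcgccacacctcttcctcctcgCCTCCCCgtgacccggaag
Rpl18, chr7:45718031-45718085, plus strand: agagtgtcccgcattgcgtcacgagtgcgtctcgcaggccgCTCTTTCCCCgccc
Rpl7a, chr2:26910767-26910821, plus strand: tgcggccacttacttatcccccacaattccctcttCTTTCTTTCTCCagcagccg
Rps6, chr4:86857353-86857407, minus strand: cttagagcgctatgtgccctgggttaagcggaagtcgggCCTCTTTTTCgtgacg
Rpl24, chr16:55966235-55966289, plus strand: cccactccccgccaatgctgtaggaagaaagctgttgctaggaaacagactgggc
The marked runs were 7 bases long at Rpl31, 10 at Rpl18, 12 at Rpl7a and 10 at Rps6, and no run of at least 5 bases lay at the annotated start of Rpl24. At Rpl7a the bases just before the capitals are pyrimidines too, so the full tract is longer than the 12 marked within the window. RefSeq windows of 250 bases before and 50 bases from the start were matched for 61 of the 85 genes, in 73 windows. A C exactly at the start with at least 4 pyrimidines after it was found in 17.8% of these windows and in 2.5% of all 32851 promoter windows, and with the start allowed to shift by 5 bases the shares were 42.5% and 18.35%. CCGGAAG, on either strand, was in 35.6% of the members' windows and 8.86% of all windows. AAGATGG, on either strand, was in 16.4% and 6.34%, and TATAA, on either strand, in 23.3% and 24.9%. A match describes the letters only.

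Sequencing depth lay between 33.7 and 52.8 M counts a library, and all 85 genes were among the 19975 tested. Msh3 itself had more reads in the libraries labelled as mutant: 118 to 136 CPM in Q140 Msh3-/-, 73.0 to 81.8 CPM in Q140 Msh3+/- and 29.5 to 33.2 CPM in Q140. Without Q140 the ranges were 111 to 131 CPM in Msh3-/-, 68.2 to 85.4 CPM in Msh3+/- and 29.1 to 33.0 CPM in wild type. The 3 Msh3 genotypes are thus apart, but in the direction opposite to a loss of transcript, so every Msh3 direction below rests on the labels. Markers of medium spiny neurons, the main striatal neuron, summed to 9746 to 20533 CPM over all 48 libraries. By the gap to the next library in a list's mean, 3 libraries stood apart from their group. They were Q140 M1 (microglia low), wild type F3 (microglia high) and Q140 Msh3+/- F1 (choroid plexus high). This rule does not mark every high sum. Choroid plexus and ependymal markers reached 644 CPM in a wild type library (group median 51.7). Cortical neuron markers reached 331 CPM in a Msh3+/- library (group median 196).

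The 85 genes together held a small part of the counted reads, with a summed share of 0.268% to 0.358% of a library's counts and a median of 0.305%. With the handling of reads that match several places unknown, this is not a measure of their share of the RNA. By FPKM, fragments scaled to gene length and library depth, Rplp1, an acidic protein of the stalk that binds elongation factors, led with a median of 396 FPKM over all libraries. Rpl4, at the protein exit tunnel, followed with 242 FPKM and Rps15, of the small subunit, with 228 FPKM. Lowest were Rpl3l, a muscle paralog of Rpl3, with 0.44 FPKM, Rps13 with 1.12 FPKM and Rps27 with 1.34 FPKM. The rows of their pseudogenes held a further part of the reads.

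The 275 pseudogene rows named for ribosomal proteins had a median summed count of 46602 a library, against 141080 for the 85 genes. For 17 of the 60 genes with such rows the pseudogenes had more counts than the gene. Rps23, a protein of the decoding centre, had a median of 74 counts and its pseudogenes 3215. Rps6, whose protein is the best known target of S6 kinase, had 211 counts and its pseudogenes 3328. Rpl3 had 2356 counts and its pseudogenes 5157. These examples were chosen after their counts were seen. How reads that match several places were assigned is not given in the sources used here, so the level of such a gene is uncertain, and Rps3a1, Rps3a2, Rps3a3, Rpl6, Rpl6l, Rps4x and Rps4l may share reads in the same way.

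**Figure D1:**
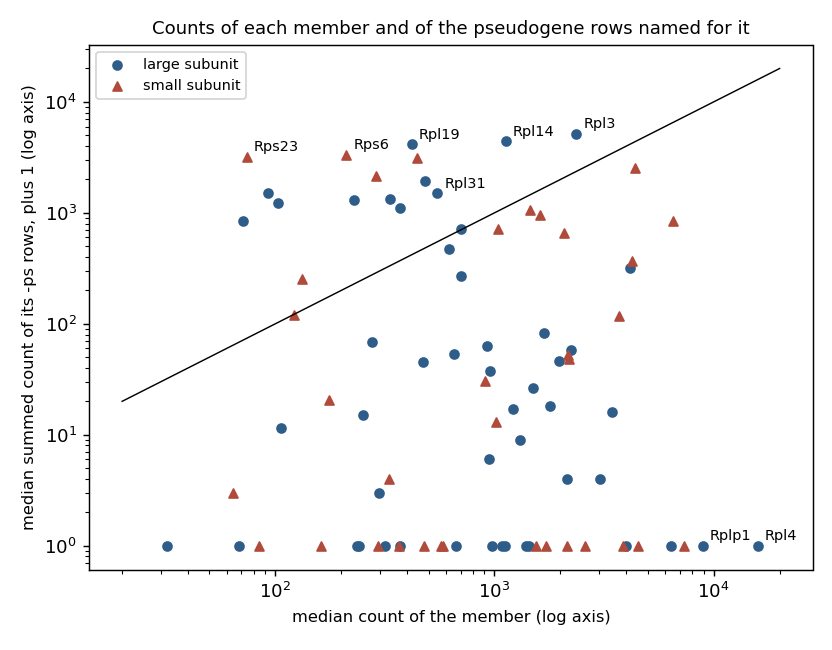
Median count of each of the 85 genes over 48 libraries (x, log axis) against the median summed count of the pseudogene rows named for it plus 1 (y, log axis); circles are large and triangles small subunit genes, and the line marks equality. Rps23, Rps6, Rpl19, Rpl14 and Rpl3 lie above the line, while Rpl4 and Rplp1 have no counted pseudogene reads.

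As a share of library counts, the summed genes were highest in Q140. The lowest, median and highest libraries were 0.278%, 0.307% and 0.336% in Q140 Msh3-/-, 0.279%, 0.305% and 0.345% in Q140 Msh3+/-, and 0.295%, 0.331% and 0.358% in Q140. Without Q140 they were 0.278%, 0.308% and 0.339% in Msh3-/-, 0.268%, 0.292% and 0.339% in Msh3+/-, and 0.281%, 0.303% and 0.324% in wild type. All 6 groups overlapped. Set against TMM-scaled library sizes, which allow for a few strong genes taking up a larger part of some libraries, the medians came closer, with 0.32% in Q140 and 0.312% in wild type. The TMM factors themselves differed by group, from 1.01 to 1.09 in Q140 and from 0.97 to 1.002 in wild type. The large subunit made up 0.191% of counts in Q140 and 0.176% in wild type, and the small subunit 0.14% and 0.127% (medians).

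**Figure D2:**
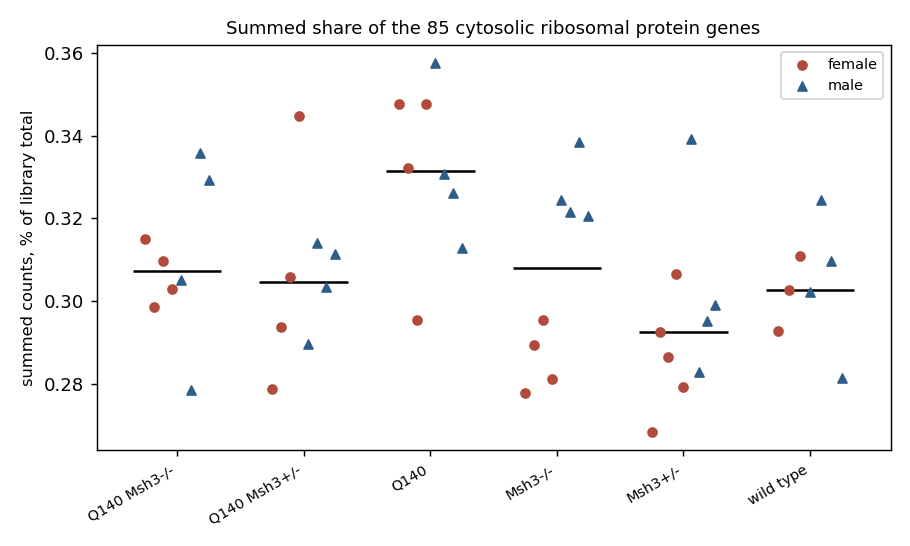
Summed counts of the 85 genes as a percentage of the library total (y) for each library, by group (x); circles are females, triangles males and bars group medians. The Q140 median of 0.331% is the highest of the 6, and the groups overlap.

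Q140 over wild type is the comparison that asks what the expanded repeat did alone. Under TMM, 2 of the 85 genes rose in Q140 striatum, Rpl18 and Rpl3, and 1 fell, Rpl31. These shares, 2.35% higher and 1.18% lower, are below those of all genes tested, of which 9.64% were called higher and 10.2% lower, and so give no excess of calls over the background. Of the 85 fold changes 73 were above 0, with a median of 0.067 on the log2 scale. Over all genes 53.7% were above 0 and the median was 0.0145. At an unadjusted p under 0.05, 15 of the 85 were higher and 1 lower, while 3281 of 19975 genes were higher and 3084 lower.

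Rpl31, a protein at the rim of the exit tunnel, had 9.08 CPM, 11.1 CPM and 11.8 CPM in the lowest, median and highest Q140 library, and 11.6 CPM, 12.5 CPM and 13.9 CPM in wild type. All Q140 libraries but 1 lay below the wild type range, and the groups overlapped only between 11.6 and 11.8 CPM. The log2 change was -0.24 (SE 0.058, edgeR adjusted p = 0.00214), and the call held without any single library of the 2 groups. The pseudogene rows named for Rpl31 had 1510 counts a library, against 547 for the gene.

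Rpl18, a large subunit protein, had 14.9 CPM, 17.2 CPM and 17.9 CPM in Q140 and 13.5 CPM, 15 CPM and 16.9 CPM in wild type. The ranges overlapped, with most Q140 libraries in the upper part. The log2 change was 0.16 (SE 0.048, edgeR adjusted p = 0.0136), and without wild type M4 it was 0.13 and no longer past the threshold. Rpl3, a core protein near the peptidyl transferase centre, had 52.4 CPM, 58.1 CPM and 61.7 CPM in Q140 and 48.5 CPM, 49.8 CPM and 55.7 CPM in wild type. Most Q140 libraries lay above the wild type range, and the rest overlapped it. The log2 change of 0.17 (SE 0.064, edgeR adjusted p = 0.0469) was at the edge of the threshold. The call was lost without any one of Q140 F1, F2, F4, M1 or M2 or wild type F1, F2, F3, M1, M3 or M4, with values of 0.15 to 0.18. The number of genes called higher was 0 without wild type M4, 1 without Q140 F2, F4 or M1 or wild type F2, F3 or M1, 4 without Q140 F3 or wild type M2, and 5 without Q140 M4.

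Scaled by library totals alone, the same comparison read differently. Then 37 of the 85 genes (43.5%) were higher in Q140 and Rpl31 alone was lower, while all genes tested were called higher in 25.4% and lower in 5.53%. The median of the 85 was 0.15 and that of all genes 0.0951, so the scale moved the 85 and all genes alike. By totals Rpl18 was 0.24 higher (edgeR adjusted p = 2.64e-04), Rpl7a 0.22 (edgeR adjusted p = 0.00233), Rpl3 0.26 (edgeR adjusted p = 0.00242) and Rpl24 0.39 (edgeR adjusted p = 0.00798). Of the small subunit all 35 fold changes were positive and 19 were called higher. Of the large subunit 47 of 50 were positive and 18 were called higher. Among all genes tested 71.2% of fold changes were positive on this scale. Rps25, needed for translation from some viral internal ribosome entry sites, was 0.20 higher (edgeR adjusted p = 0.00522).

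**Figure D3:**
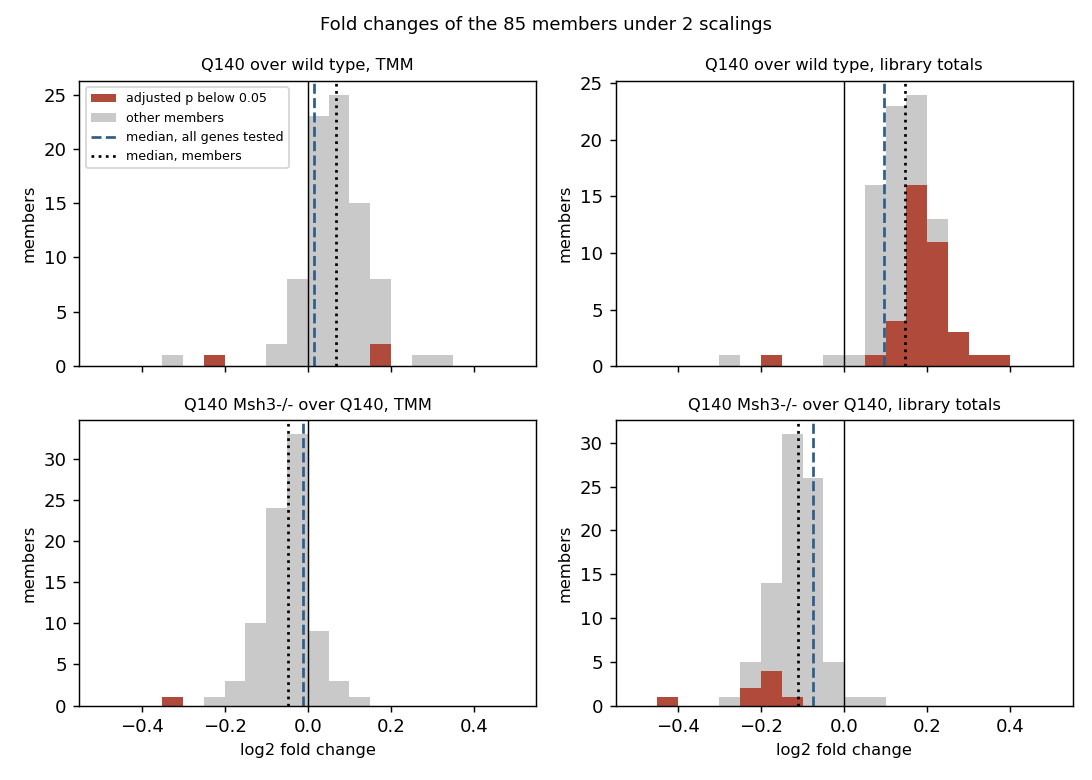
Histograms of the log2 fold changes of the 85 genes (x) for Q140 over wild type (top) and Q140 Msh3-/- over Q140 (bottom), scaled by TMM (left) and by library totals (right); y is the number of genes, red bars passed an adjusted p of 0.05 and grey bars did not, dotted lines are the medians of the 85 and dashed lines those of all genes tested. In Q140 over wild type the median moves to 0.15 under library totals from 0.067 under TMM.

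Gene length and a few libraries moved with this shift. Ribosomal protein genes are short: 51 of the 85 lie in the shortest of 4 equal length classes of the genes tested, up to 1811 bases. Among the genes outside the family, the median log2 change in Q140 over wild type was 0.052, 0.035, 0.0093 and -0.024 from the shortest to the longest class under TMM. The excess of short over long genes within a library was largest in Q140 M1, at 0.208 on the log2 scale, Q140 F4 at 0.177, Q140 Msh3+/- F4 at 0.165 and Q140 Msh3-/- M4 at 0.153, while wild type ranged from -0.058 to 0.023. With the length trend taken out, the median of the 85 was 0.035, 62 were above 0 and 1 was called higher. That fit called 1858 of all 19975 genes higher. Without those 4 libraries the median of the 85 was 0.038 under TMM, with 1 called higher, against 1461 of 19992 genes. Under library totals 17 of the 85 were then called higher, against 3854 of 19992 genes. The libraries apart in markers were Q140 M1, wild type F3 and Q140 Msh3+/- F1. Without them 24 of the 85 were called higher under library totals, against 3899 of 20035 genes. The part of these libraries in the result was not tested beyond these values.

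Cell type markers also moved with the group. Of 15 medium spiny neuron markers 14 were lower and 1 higher in Q140, with summed levels of 9746 to 14544 CPM in Q140 and 16986 to 19106 CPM in wild type. Of 10 markers each, 4 astrocyte, 3 endothelial and mural, 2 microglia and 1 oligodendrocyte marker were lower, and none of these 4 lists had a marker called higher. Among all genes 10.2% were called lower and 9.64% higher, so the oligodendrocyte count is near the share of all genes. Among cortical neuron markers Cux2 was higher by 0.37 (edgeR adjusted p = 0.0045) and Rasgrf2 lower. The choroid plexus marker Kcnj13 was lower, but it is near the floor, with a median of 0.093 CPM over all libraries. Of 13 genes of the mitochondrial genome 2 were lower, mt-Nd6 and mt-Nd2. The astrocyte markers summed to 3991 to 4782 CPM in Q140 and 5106 to 5527 CPM in wild type. In bulk tissue fewer cells of a type and less RNA per cell cannot be told apart, and the part of the marker shift in the ribosomal protein values was not tested.

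Within groups, Rpl29 alone held 51.1% of the summed variance of the 85 genes in log2 CPM. The first component held 51.7% with Rpl29, 32.5% without it and 41.1% with each gene set to unit variance. Over all genes tested the first component held 13.3%. The 85 genes thus varied together, and their counts of fold changes above 0 do not hold 85 separate results. The mean log2 CPM of the 85 had an SD of 0.075 between libraries.

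Q140 Msh3-/- over Q140 asks whether loss of Msh3 altered the Q140 state. Under TMM 1 of the 85 genes fell, Rpl24, and none rose, against 5.04% lower and 6.85% higher among all genes. Rpl24, a large subunit protein near the subunit interface, had 0.968 CPM, 1.37 CPM and 1.59 CPM in Q140 Msh3-/- and 1.44 CPM, 1.72 CPM and 2.003 CPM in Q140. The groups overlapped, and the gene is weak, with a median of 68 counts. Its log2 change was -0.35 (SE 0.11, edgeR adjusted p = 0.03). The call was lost without Q140 F2 (-0.31), Q140 M1 (-0.34), Q140 Msh3-/- F4 (-0.29) or Q140 Msh3-/- M2 (-0.32). The number called lower was 2 without Q140 F3, M2, M3 or M4 or Q140 Msh3-/- M3, and without Q140 Msh3-/- F3 there was 1 gene called higher.

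Of the 85 fold changes in this comparison 13 were above 0, and the median was -0.047, against -0.0108 for all genes. With the length trend taken out it was -0.018, with 27 above 0. Rpl18, higher in Q140 over wild type, was at -0.13 (SE 0.046, edgeR adjusted p = 0.0642), and Rpl31 at 0.14 (SE 0.056, edgeR adjusted p = 0.088). Both comparisons share the Q140 libraries, so opposite signs between them are not independent. Under library totals 8 of the 85 (9.41%) were lower and none higher, against 17.3% lower and 4.03% higher among all genes, and the median was -0.11. By totals Rpl18 was at -0.19 (edgeR adjusted p = 0.00374), Rpl24 at -0.41 (edgeR adjusted p = 0.00622) and Rpl7a at -0.18 (edgeR adjusted p = 0.0145). Without the 4 libraries rich in short genes 5 of the 85 were called lower under library totals, against 2192 of 19992 genes. In this comparison 14 of the 15 medium spiny neuron markers were higher, with summed levels of 14428 to 16954 CPM in Q140 Msh3-/- and 9746 to 14544 CPM in Q140. Their part was not tested.

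**Figure D4:**
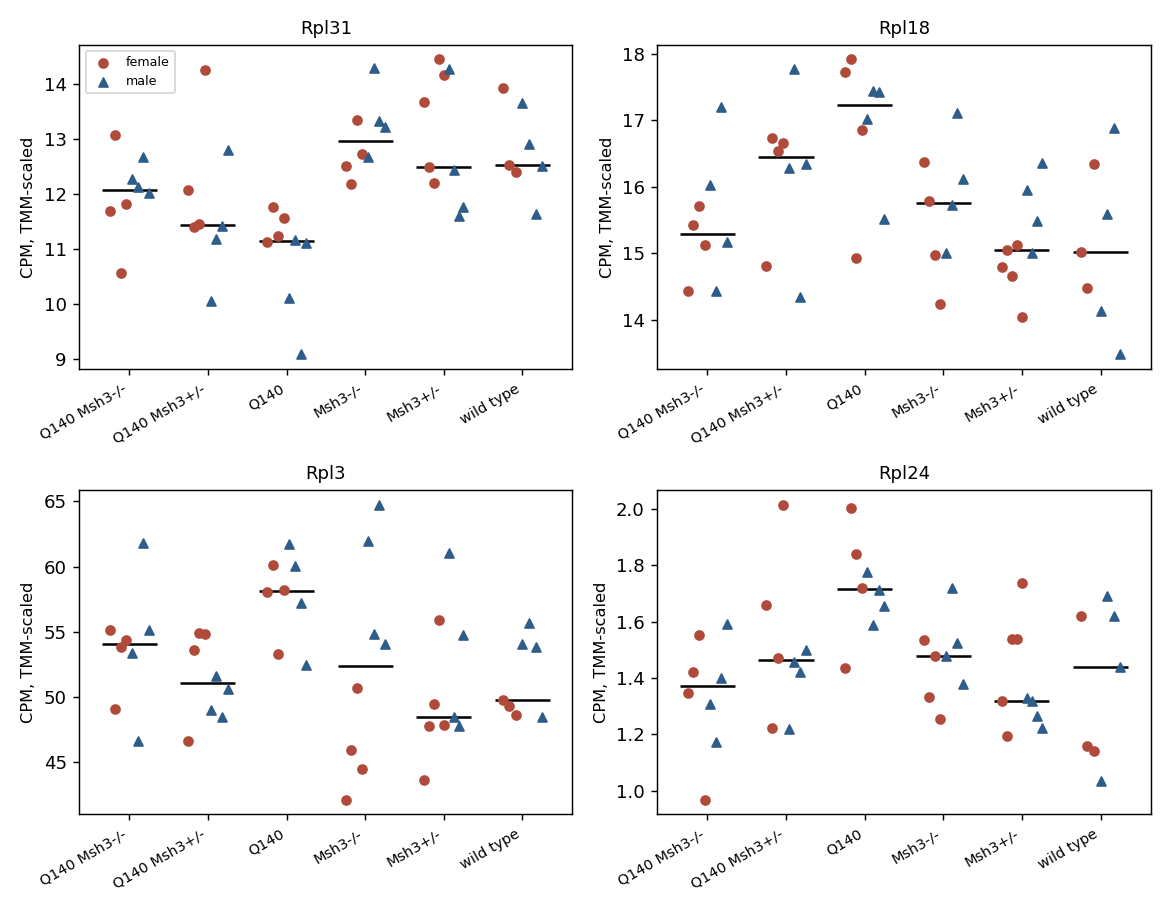
CPM on TMM-scaled library sizes (y, axes not starting at 0) of Rpl31, Rpl18, Rpl3 and Rpl24 in each library, by group (x); circles are females, triangles males and bars group medians. Rpl31 is lowest in Q140 with a median of 11.1 CPM, and Rpl18, Rpl3 and Rpl24 have their highest medians there, at 17.2, 58.1 and 1.72 CPM.

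In Q140 Msh3+/- over Q140, which shares the Q140 libraries with the comparisons above, none of the 85 genes passed under TMM, while 1.28% of all genes were higher and 0.696% lower. At an unadjusted p under 0.05 in edgeR 13 of the 85 were lower and 1 higher, against 1527 and 1690 of 19975 genes. With DESeq2 1 was called lower. Only 5 fold changes were above 0 and the median was -0.072, against -0.0052 for all genes. Of 15 medium spiny neuron markers 8 were higher and 0 lower, with summed levels of 13177 to 15852 CPM in Q140 Msh3+/- and 9746 to 14544 CPM in Q140. Of 10 choroid plexus and ependymal markers 5 were higher, with summed levels of 41.7 to 4356 CPM in Q140 Msh3+/- and 33.5 to 77.2 CPM in Q140. The group medians were close, at 56.7 and 56.5 CPM, and Q140 Msh3+/- F1 stood apart from its group in this list. Without the 3 libraries apart in markers, F1 among them, 5 of 20035 genes were called higher and 7 lower under TMM. The median of the 85 was then -0.056, with 10 above 0. The part of either list was not tested. Rpl7a, a large subunit protein, had 23.6 CPM, 25.1 CPM and 30.9 CPM in Q140 Msh3+/- and 25.6 CPM, 28.6 CPM and 33.2 CPM in Q140, ranges that overlapped. Its log2 change was -0.17 (SE 0.053, edgeR adjusted p = 0.0711). It passed the threshold without Q140 F3 (-0.20), Q140 M4 (-0.19) or Q140 Msh3+/- F4 (-0.21), and without the last of these 5 genes were called lower. Under library totals Rpl7a alone was lower (-0.21, edgeR adjusted p = 0.0261), against 2.48% of all genes. Rpl3 was at -0.17 (SE 0.061, edgeR adjusted p = 0.137) under TMM.

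Q140 Msh3-/- over Q140 Msh3+/- called none of the 85 genes, with 0.00501% of all genes higher and 0.01% lower. At an unadjusted p under 0.05 in edgeR 2 of the 85 were higher and 1 lower, against 544 and 629 of 19975 genes. The median was 0.029 with 63 above 0. It was 2e-04 under library totals, with 43 above 0, and turned to -0.018 with plate row in the fit, with 28 above 0. Rpsa, which doubles as a laminin receptor, was at 0.11 (SE 0.047, edgeR adjusted p = 0.746), and Rps13 at -0.17 (SE 0.077, edgeR adjusted p = 0.795). Rps13 has 133 counts and its pseudogenes 253, and with both summed its value was 0.005.

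Msh3 genotype without Q140 left no called difference in the family. In Msh3-/- over wild type 60 of the 85 fold changes were above 0, with a median of 0.027, and all genes were called in 0.01% higher and 0.02% lower. In Msh3+/- over wild type 31 were above 0, with a median of -0.014, and all genes were called in 0.01% higher and 0% lower. With plate row in the fit the Msh3+/- median turned to 0.013, with 54 above 0, and the Msh3-/- median was 0.067, with 76 above 0. By the wells listed for the libraries, wild type shared only rows A and H with Msh3-/-, and only A and B with Msh3+/-. Plate row and genotype are thus largely confounded in these comparisons. At an unadjusted p under 0.05 in edgeR, 2 of the 85 were higher in Msh3-/- and 1 higher and 1 lower in Msh3+/-. Of 19975 genes, 370 were higher and 437 lower in Msh3-/-, and 457 and 486 in Msh3+/-. Rpl22l1, the paralog that Rpl22 represses, was at 0.18 in Msh3-/- (SE 0.073) and 0.16 in Msh3+/- (SE 0.071), each against the same wild type libraries and each far from the threshold (edgeR adjusted p = 0.9998 and 0.988). Rpl37a was at -0.17 in Msh3+/- (SE 0.065, edgeR adjusted p = 0.988).

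On Msh3 mutant backgrounds no member was called for Q140 under TMM, and the medians were near 0 on that scale. In Q140 Msh3-/- over Msh3-/- none was called, against 0.0501% higher and 0.025% lower among all genes. Of the 85 fold changes 38 were above 0, and the median was -0.0063. At an unadjusted p under 0.05 in edgeR 0 were higher and 2 lower, against 656 and 686 of 19975 genes. In Q140 Msh3+/- over Msh3+/- none was called under TMM, against 2.96% higher and 3.49% lower, 47 were above 0 and the median was 0.0047. At an unadjusted p under 0.05 in edgeR 3 were higher and 1 lower, against 1919 and 1862 of 19975 genes. Under library totals Rpl37a (0.21), Rpl18 (0.14) and Rpl7l1 (0.15) were higher there, against 8.98% of all genes, 76 were above 0 and the median was 0.057, against 0.0559 for all genes. With plate row in the fit, Q140 Msh3-/- over Msh3-/- had 14 above 0 and a median of -0.062. By the wells listed for the libraries, these groups shared only row A. Plate row and genotype can thus hardly be told apart in that fit. Rpl31 was the lowest by p on both backgrounds: 10.6 to 13.1 CPM in Q140 Msh3-/- and 12.2 to 14.3 CPM in Msh3-/-, a log2 change of -0.12 (SE 0.056, edgeR adjusted p = 0.714), and 10.05 to 14.3 CPM in Q140 Msh3+/- and 11.6 to 14.4 CPM in Msh3+/-, a change of -0.13 (SE 0.054, edgeR adjusted p = 0.145). Without Q140 Msh3+/- F4 the second was -0.17 and passed, and without Msh3+/- M1 Rpl37a passed at 0.22.

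The difference between these Q140 effects was tested as an interaction. For Msh3-/- none of the 85 passed under TMM, against 1.67% of all genes higher and 0.721% lower. At an unadjusted p under 0.05 in edgeR 0 of the 85 were higher and 7 lower, against 1622 and 1431 of 19975 genes. Here 10 fold changes were above 0 and the median was -0.062, against -0.0085 for all genes. With the length trend taken out the median was -0.029, with 22 above 0. Rpl18 was at -0.18 (SE 0.066, edgeR adjusted p = 0.151) and Rpl24 at -0.43 (SE 0.16, edgeR adjusted p = 0.155). Under library totals 2 were lower, among them Rpl18 (-0.24), against 3.88% of all genes lower. For Msh3+/- none passed, with 0% of all genes called in either direction, and the median was -0.060. At an unadjusted p under 0.05 in edgeR 4 were lower and 0 higher, against 786 and 835 of 19975 genes. Rps25 was at -0.18 (SE 0.077, edgeR adjusted p = 0.558). A smaller Q140 effect on the mutant backgrounds was therefore not shown for any 1 gene on the TMM scale.

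Sex was compared as an average over the genotypes. Male over female called none of the 85 under TMM, against 1.28% higher and 1.65% lower among all genes, yet 69 were above 0, with a median of 0.035 against -1e-04 for all genes, and 17 higher and 1 lower at an unadjusted p under 0.05, while 1729 of 19975 genes were higher and 1872 lower. DESeq2 called 1 higher. Under library totals 1 of the 85 was higher, against 1.80% of all genes. Rpl14 was at 0.094 (SE 0.032, edgeR adjusted p = 0.0907). The summed share ran from 0.278% to 0.358% in males, with a median of 0.313%. It ran from 0.268% to 0.348% in females, with a median of 0.297%. The mean log2 CPM of the 85 ran from 3.96 to 4.22 in males and from 3.91 to 4.25 in females. The sexes thus overlapped on both measures.

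The stalk proteins Rplp0, Rplp1 and Rplp2, which recruit elongation factors, were at 0.0048, 0.057 and -3e-04 in Q140 over wild type and at -0.011, -0.057 and -0.042 in Q140 Msh3-/- over Q140 under TMM, none called. Rpl5 and Rpl11, which with 5S rRNA restrain Mdm2 and so raise p53, were at 0.058 and 0.093 in Q140 over wild type and at -0.027 and -0.13 in Q140 Msh3-/- over Q140, none called. Rps6 was at 0.049 (SE 0.069) in Q140 over wild type, with 4.52 to 5.69 CPM in Q140 and 4.40 to 5.02 CPM in wild type. Rps27a, made as a fusion with ubiquitin, was at 0.18 (SE 0.090, edgeR adjusted p = 0.147). Rpl22 was at 0.017 and its paralog Rpl22l1 at 0.17 (SE 0.073, edgeR adjusted p = 0.0991), and Rpl7l1 was at 0.12 (SE 0.048, edgeR adjusted p = 0.0732) and Rps27l, a p53 target, at 0.16 (SE 0.085, edgeR adjusted p = 0.189).

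Rps23, at 90922958 to 90924950 on chromosome 13 (GRCm38), lies 1.29 Mb from Msh3. It had 1.47 to 1.75 CPM in Msh3-/- and 1.42 to 1.92 CPM in wild type, a log2 change of -0.031 (SE 0.11, edgeR adjusted p = 0.9998). The groups overlapped, and at 74 counts the error was wide. Rps3a3 lies 16.3 Mb from Msh3, and the member nearest to Htt, Rpl9, lies 30.5 Mb away.

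Rpl29, a large subunit protein whose loss makes mice small, varied more than any other member, with a coefficient of variation within groups of 41.0%. Its levels fell into 3 separate ranges that crossed the genotype groups. In 3 libraries it had 0.775 to 1.17 CPM, or 36 to 55 counts. In 17 it had 20.1 to 27.1 CPM, or 687 to 1238 counts, and in 28 it had 37.8 to 52.6 CPM, or 1391 to 2698 counts. The lowest range held Q140 Msh3-/- M3 and Msh3-/- F4 and M3. Both M3 libraries share the stem of the animal code in their labels, and so does Q140 Msh3-/- M2 of the middle range. Msh3-/- F4 shares its stem with Q140 Msh3-/- F1 and Msh3-/- F3 of the highest range and Msh3+/- F3 of the middle range. The middle range held 2 Q140 Msh3-/-, 5 Q140 Msh3+/-, 5 Q140, 1 Msh3-/-, 3 Msh3+/- and 1 wild type library, and the highest held 5, 3, 3, 5, 6 and 6 in the same order of groups. The median of the middle range, 22.6 CPM, was close to midway between 1.15 CPM and 44.6 CPM.

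Rpl29 lies on chromosome 9 at 106429454 to 106431568 (GRCm38). It was chosen after its spread was seen, and so were the genes set beside it. Of the 10 genes among 19974 whose ranks over the 48 libraries were most like it, 7 were on chromosome 9, and 6 of these lay within 3.01 Mb of it. Abhd14a, 0.0106 Mb away, had medians of 8.37, 19.3 and 32.2 CPM in the libraries of the lowest, middle and highest Rpl29 range (Spearman's rho 0.769). Poc1a, a centriole protein 0.148 Mb away, had 3.79, 6.14 and 8.44 CPM (rho 0.823). Parp3, a DNA repair enzyme 0.0409 Mb away, ran the other way, with 15, 9.89 and 6.82 CPM (rho -0.778). Over all 191 tested genes within 5 Mb the median absolute rho was 0.205, against 0.135 over all genes. No genotype at this locus is given in the labels, and whether these levels follow the DNA sequence of the animals there was not tested. For Rpl29 itself no comparison was called, and its log2 change in Q140 over wild type, -0.33, had an SE of 0.45.

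**Figure D5:**
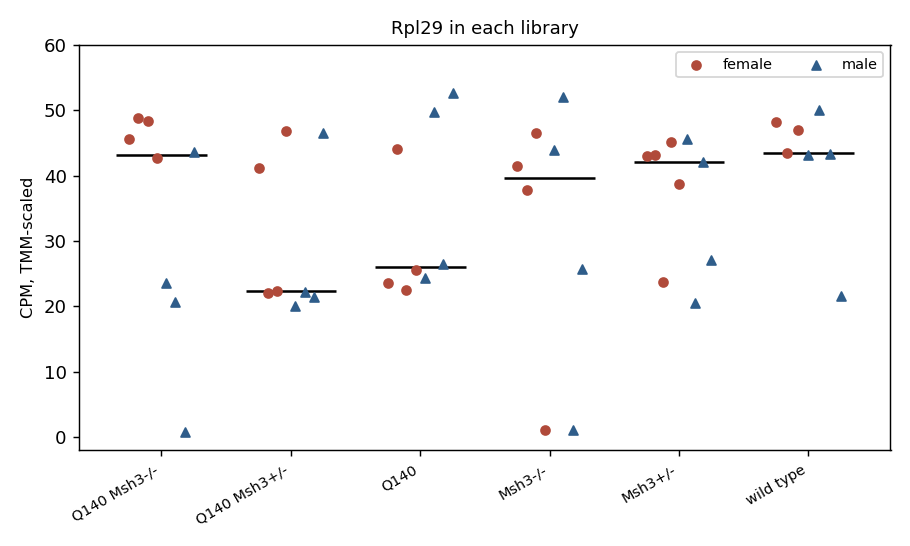
CPM of Rpl29 on TMM-scaled library sizes (y) in each of the 48 libraries, by group (x); circles are females, triangles males and bars group medians. The libraries fall near 1, near 23 and near 45 CPM (range medians 1.15, 22.6 and 44.6), and all 6 groups hold libraries of the middle and highest range.

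Other genes of the translation machinery were counted from lists drawn up for this family. In Q140 over wild type under TMM, 7 of 77 mitochondrial ribosomal protein genes rose and 1 fell, with a median of 0.055, while 9.64% of all genes were called higher and 10.2% lower. The rises are near that share and the falls below it. Under library totals 41 rose, against 25.4% of all genes. Mrpl39 rose by 0.21 (SE 0.043, edgeR adjusted p = 2.88e-04) and Mrps17 fell by 0.11. Of the 4 cytosolic ribosomal proteins with other symbols Rack1, a scaffold of the small subunit, rose by 0.11 (SE 0.035, edgeR adjusted p = 0.0157). Of 18 elongation and other factors with TOP mRNAs Eef1a1 rose by 0.14 and Nap1l1 fell by 0.16, and of 27 initiation factors Eif4a2, an RNA helicase, rose by 0.18 (edgeR adjusted p = 1.92e-05) and Eif2b3 by 0.15.

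The background for the next lists is the same 9.64% higher and 10.2% lower among all genes. Of 40 ribosome assembly factors 5 rose and 3 fell in Q140 over wild type, among them Eif6, which keeps the subunits apart, at 0.22 and Nop16 at 0.19, while Nolc1 fell by 0.11. Of 14 genes for RNA polymerase I and its factors, which make rRNA, Polr1e rose by 0.33 (SE 0.078, edgeR adjusted p = 0.00136) and Polr1a by 0.1, and Ubtf, which opens rDNA, fell by 0.24 (SE 0.040, edgeR adjusted p = 1.03e-05). In Q140 Msh3-/- over Q140 Polr1e fell by 0.24, Polr1a fell by 0.12 and Ubtf rose by 0.14. Of 20 genes of the mTORC1 pathway 1 rose and 4 fell in Q140 over wild type. Rps6kb2, an S6 kinase, rose by 0.17, while Ddit4l fell by 1.64 (SE 0.14, edgeR adjusted p = 1.87e-11), Deptor by 0.45, Sesn3 by 0.29 and Tsc1 by 0.12. In Q140 Msh3-/- over Q140 Ddit4l rose by 1.099, Deptor by 0.37 and Sesn3 by 0.24, and Sesn2 fell by 0.27. Both comparisons share the Q140 libraries.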

How the data were processed

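RNA of 48 striatum libraries was extracted with an RNeasy kit and made into stranded TruSeq libraries, per the labels' protocols. The deposited table gives raw counts per gene. STAR 2.7.5c, SAMtools 1.10, HTSeq 0.12.3 and the build GRCm38 (mm10) are named in the submitters' processing notes, without their roles. The strand and multiple-mapping settings and the annotation are not given in the sources used here. A second deposited table gives FPKM, per the file headers. Columns were tied to samples by the names in the labels, and no value column was left unmapped (0).

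Counts were tested with edgeR 4.0.16 in R 4.3.3: filterByExpr (minimum count 10, minimum total 15), TMM factors (0.956 to 1.09), quasi-likelihood fits of group and sex over all 48 libraries, two-sided, with Benjamini-Hochberg adjustment over 19975 genes and a threshold of 0.05. Library totals as the scale were reported beside TMM. Levels are CPM. The common biological coefficient of variation was 10.3%, untested genes held 0.0383% of counts, and the highest correlation between libraries was 0.9982. P-values measure the spread between libraries, taken as separate mice. Some libraries share the stem of the animal code in their labels, within a group too, as Msh3-/- F1 and F2 do. No relation between such mice entered the main fits. With the stem as a random block in limma (correlation 0.1355), the median of the 85 in Q140 over wild type was 0.056, with 71 above 0. The fits were first tested on simulated data in which the changed genes were known. The planted changes were larger than the medians of the 85 reported here, so that run does not speak to shifts of this size. Alternatives used DESeq2 1.42.0, limma 3.58.1 and the settings named in the closing section. Same-numbered libraries were not paired: their deviations did not all correlate above 0.1.

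Coordinates come from GENCODE M21 and promoters from RefSeq. The genes, lists and tests were chosen with earlier results of these data known. Named genes are, in each comparison, the called members with the largest changes, or the 2 of smallest p where fewer than 3 were called. To these were added members of set roles, the paralogs and their parents, members within 20 Mb of Msh3 or Htt, those of highest and lowest FPKM and of widest spread, and up to 4 called genes of each other list. Members just outside the threshold, the pseudogene examples and the genes beside Rpl29 were chosen after their values were seen. Some genes that the rule names are not reported here.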

Additional observations from a re-analysis of the deposited data

Results flagged for a closer look

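Of 78 sets of 1 group and 1 measure (the summed share and the named genes reported here), 5 held a library apart from the others by a Dixon test at the 95% level, which chance gives in about 1 of 20 sets. Q140 Msh3+/- F4 was the highest library of its group for Rpl7a, at 30.9 CPM with the next at 27.0, and for Rps25, at 28.1 CPM with the next at 22.2. It is also the library of its group with the largest excess of short genes. Msh3+/- M1 was the highest of its group for Rps25, at 30.2 CPM with the next at 24.6, and for Rpl37a, at 9.99 CPM with the next at 7.88. Q140 F4, also rich in short genes, was the highest of its group for Rpl37a, at 10.2 CPM with the next at 8.89.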

How the results depend on the processing

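The number of the 85 genes called higher in Q140 over wild type (2 under TMM) was 37 by library totals, 38 and 40 by limma on log2(FPKM + 0.1) and log2(FPKM + 1), 28 without a filter on low FPKM, 8 with plate row, 4 with at least 1 CPM in 24 libraries, and 1 with RLE factors, the length trend taken out, no count filter or the replicate block. It was 1 without the 4 libraries richest in short genes (Q140 M1, Q140 F4, Q140 Msh3+/- F4, Q140 Msh3-/- M4), and by library totals 17 without those 4 and 24 without the 3 apart in markers (Q140 M1, wild type F3, Q140 Msh3+/- F1), where the number lower was 0. Among all genes 5074 of 19975 were higher by library totals, and 4944 and 4992 of 16995 by FPKM with either pseudocount. Without a filter on FPKM 4465 of 35140 were, with plate row 1901 of 19975, and at the 1 CPM filter 1989 of 15266. With RLE factors 1725 of 19975 were, with the replicate block 1781, and with no count filter 1560 of 35140. The median of the 85 was 0.147 by library totals and 0.1434 by log2(FPKM + 0.1), with and without a filter. In Q140 Msh3-/- over Q140 the number lower (1) was 8 by totals, 11 and 12 by FPKM with a pseudocount of 0.1 and 1, 5 by FPKM without a filter, 5 with plate row, 2 at the 1 CPM filter, 0 with no count filter, plate column, the compared groups alone or without those 3 libraries, and by totals 5 without those 4 and 3 without those 3. The number higher was 1 with the length trend out or plate column. Among all genes 3459 of 19975 were lower by totals, 892 with plate row, and 3461 and 3538 of 16995 by FPKM. By FPKM without a filter 2849 of 35140 were lower, and at the 1 CPM filter 1136 of 15266. By totals 2192 of 19992 were lower without those 4 and 2546 of 20035 without those 3. Of all 19975 genes 1307 were higher with the length trend out and 1033 with plate column. In Q140 Msh3+/- over Q140 the number lower (0) was 1 by totals or DESeq2, and 2 and 3 by FPKM. Of all 19975 genes 495 were lower by totals and 205 by DESeq2. By FPKM 558 and 605 of 16995 genes were lower. In Q140 Msh3+/- over Msh3+/- the number higher (0) was 3 by totals, 3 by FPKM with either pseudocount, 1 without a filter, and by totals 1 without those 4 and 3 without those 3; 1 was lower without those 4. In the interaction with Msh3-/- the number lower (0) was 2 by totals, 3 by FPKM with either pseudocount and 1 by totals without those 3, and the median was -0.1566 with plate row. In male over female the number higher (0) was 1 by totals, DESeq2, the 1 CPM filter, FPKM or pseudogene rows added, 3 with the length trend out, and 2 without those 4 on either scale. Among all genes in Q140 Msh3+/- over Msh3+/- 1793 of 19975 were higher by totals, and 1769 and 1754 of 16995 by FPKM. For the interaction with Msh3-/- 775 of 19975 were lower by totals, and 883 and 933 of 16995 by FPKM. For male over female 359 of 19975 were higher by totals and 264 with the length trend out. With pseudogene rows added Rps13 turned to 0.005 in Q140 Msh3-/- over Q140 Msh3+/-. Plate row, taken from the wells listed for the libraries, is largely confounded with group where Msh3-/- is compared with wild type or with Q140 Msh3-/-. The causes were not tested. The settings that leave out named libraries or add pseudogene rows were chosen after seeing the data.

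With single libraries left out, the number higher in Q140 over wild type ran from 0 to 5, the number lower stayed 1 and the median ran from 0.049 to 0.079. In Q140 Msh3-/- over Q140 the number lower ran from 0 to 2, the number higher from 0 to 1 and the median from -0.067 to -0.025. In Q140 Msh3+/- over Q140 the number lower ran from 0 to 5, and in Q140 Msh3+/- over Msh3+/- both numbers ran from 0 to 1. In the replicate block fit the number higher in Q140 over wild type was 1, but same-numbered libraries correlated between -0.109 and 0.386, so the numbers do not pair the mice. Counts of 68 to 211, as for Rpl24, Rps23, Rps13 and Rps6, limit the precision of those genes.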
